A study of Mus musculus with 6 samples.

Results

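Mitosis genes encode the machinery that condenses, aligns and separates the chromosomes and then divides the cell. The 40 genes described here were taken by symbol from the deposited table of 55450 genes and sorted into 7 roles: entry into mitosis, mitotic kinases with the chromosomal passenger complex, kinetochore and checkpoint, spindle and motors, partners of the anaphase promoting complex, cytokinesis, and chromosome structure with the proliferation mark Ki-67. All 40 were found, each in 1 row, and all 40 passed the filter on low values used for testing. The cells were regulatory T (Treg) cells, a CD4 T cell type marked by Foxp3 that dampens immune responses, sorted from MC38 tumours of about 8 mm, a transplantable mouse colon carcinoma, in C57BL/6 mice. There were 3 libraries from mice whose Treg cells lacked Tim-3, an inhibitory receptor encoded by Havcr2, and 3 from mice whose Treg cells had it. All mice carried the tumour. The allele, any Cre driver, the age of the mice and whether each library was a separate mouse are not given in the sources used here, so p-values measure the spread between libraries, which may be partly technical. Column names carried no replicate numbers. The libraries are called deficient C1, deficient D and deficient dated, and sufficient A1, sufficient B1 and sufficient dated, where "dated" marks the library of each group whose column name held a calendar date and the other 4 are called undated.

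As background, cyclin B and the kinase Cdk1 start mitosis, Polo and Aurora kinases drive spindle assembly, and the spindle checkpoint holds back the anaphase promoting complex until every kinetochore is attached. Most such genes are transcribed mainly in G2 and mitosis, so in a bulk library their level can rise with the share of dividing cells. Treg cells in tumours include dividing cells. In bulk RNA, more dividing cells and more mitotic RNA per dividing cell cannot be told apart.

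No mitosis gene passed the test between deficient and sufficient Treg cells, and libraries of the same group differed widely in these genes. The highest levels were in deficient C1 and deficient D, and the lowest in the deficient dated library. Summed over the 40 genes, transcript abundance (TPM, a level scaled for transcript length and for the library's total) was 1950.7 in deficient C1, 1680.5 in deficient D and 610.3 in deficient dated, against 1165.5 in sufficient A1, 1182.4 in sufficient B1 and 863.8 in sufficient dated. The deficient libraries thus lay on both sides of all sufficient ones. The median level of the genes, in log2(TPM + 1), was 4.87, 4.35 and 2.74 in deficient C1, D and dated, and 4.04, 3.94 and 3.33 in sufficient A1, B1 and dated.

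In limma's moderated test on the deposited log2 values, with Benjamini-Hochberg adjustment over 12155 tested genes, 0 of the 40 passed an adjusted p of 0.05, where 0.206% of all tested genes did. At an unadjusted p under 0.05 the count was also 0 of 40, against 11.7% of all tested genes. In none of the 40 were the groups free of overlap, a state found at 17.6% of tested genes. Adjusted p ran between 0.511 and 0.994 and log2 differences (deficient minus sufficient) between -0.51 and 0.72. The median difference over the 40 was 0.21, against 0.09 over all tested genes, and 26 of 40 were positive, against 60.1% of all tested genes. Without deficient C1 that median was -0.11 with 13 of 40 positive, and without the deficient dated library it was 0.74 with 37 of 40 positive. It was 0.04 without deficient D and 0.06 without sufficient dated. Over all genes 25 were called, 16 higher and 9 lower. The split was 16 and 22 after quantile normalization and 11 and 19 after median centring, and 0 of the 40 mitosis genes were among the calls in either.

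**Figure D1:**
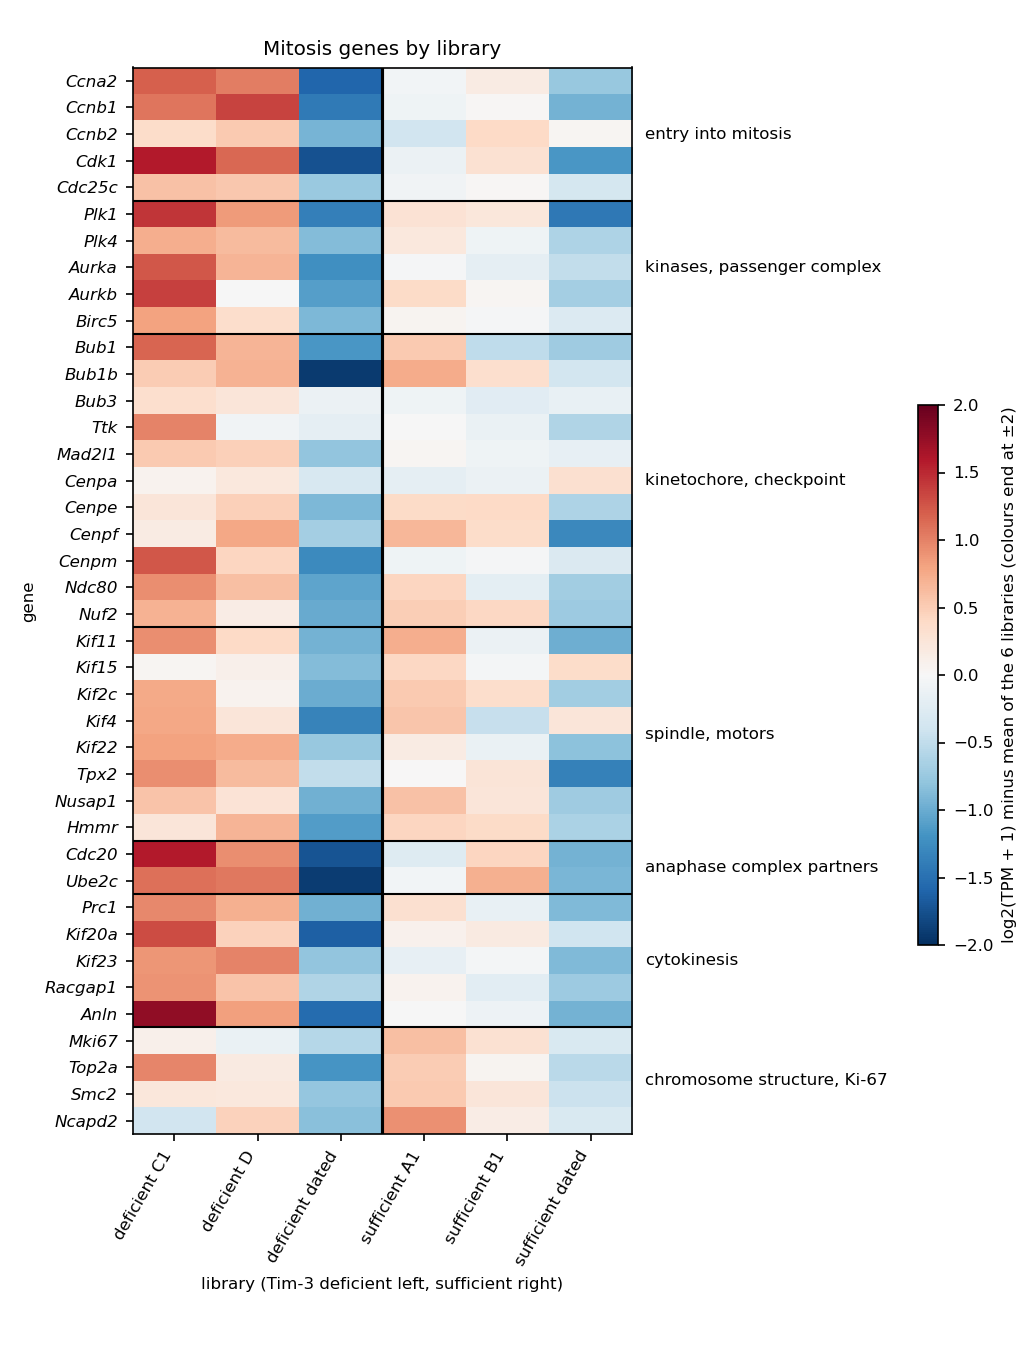
Each row is a mitosis gene and each column a library (3 Tim-3 deficient left of the line, 3 sufficient right), and colour gives log2(TPM + 1) minus the gene's mean over the 6 libraries, with black lines between roles. The deficient dated column is the bluest in most rows (lowest in 31 of 40 genes), and deficient C1 the reddest (highest in 27 of 40).

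The spread within the deficient group was wide for these genes. The deficient dated library was the lowest of the 6 for 31 of 40 genes, against 19.9% of all tested genes, and the sufficient dated library for 8 of the other 9. Deficient C1 was highest for 27 genes and deficient D for 6, where these libraries were highest for 28.3% and 20.2% of tested genes. The standard deviation (SD, n = 3) was larger among deficient than among sufficient libraries for 36 of 40 genes, against 56.4% of all tested genes. Its median was 0.92 in deficient and 0.52 in sufficient libraries, in log2(TPM + 1), against 0.33 and 0.29 over all tested genes. The 4 exceptions were Cenpa, Cenpf, Tpx2 and Mki67.

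Several other properties differed between the libraries, not all in the order of these levels, and their part in them was not tested. Genes at 1 TPM or more numbered 11474 in deficient dated and 11470 in sufficient dated, and 12104 to 12681 in the undated libraries. TPM keeps no read counts, so depth is unknown. Of 10 myeloid markers, 5 were tested and 0 were called. Their summed TPM was 1017.9 in deficient C1, 12.1 in deficient D and 18.6 in deficient dated, against 101.4, 663.7 and 18.1 in sufficient A1, B1 and dated. The 5 fibroblast markers summed to 295.4 TPM in deficient C1, and to 5.67 to 30.7 in the other deficient and 1.79 to 39.3 in the sufficient libraries. Most of the sum in deficient C1 was Dcn (274.8 TPM), with Col3a1 at 19.97 TPM. Col1a1, Col1a2 and Pdgfra had only 0.13, 0.38 and 0.14 TPM there. Without deficient C1 and sufficient B1, the library highest in myeloid markers in each group, the median difference of the 40 genes was -0.09 and 0 were called. Of 7 tumour and epithelial markers, Krt8, Krt19 and Cldn4 were at 0 in every library, and the list summed to 12.8 to 24.6 TPM in deficient and 10.4 to 17.2 TPM in sufficient libraries. The 4 Y-linked genes Ddx3y, Eif2s3y, Kdm5d and Uty together had 0.01 TPM in deficient dated. They had 152.4 and 185.6 TPM in deficient C1 and D, and 139.5 to 176.3 in the sufficient libraries. Xist had 3.03 TPM in deficient dated and at most 0.02 TPM in every other library. The deficient dated library thus differed from the rest in these sex-linked transcripts, and any bearing on the mitosis genes was not tested. The 8 Treg and T cell markers (Foxp3, Cd4, Cd3e, Cd3d, Cd3g, Il2ra, Ctla4 and Ikzf2) summed to 4027.9 to 5258.0 TPM in deficient and 5279.8 to 6440.7 TPM in sufficient libraries, without overlap. Foxp3 and Ikzf2 had positive log2 differences (0.31 and 0.07), and the other markers of this list had negative ones. Each marker passed the filter, and 0 were called. The 5 B cell markers, with Ms4a1 at 0 throughout, summed to 186.3 to 242.8 TPM in deficient and 51.2 to 173.0 TPM in sufficient libraries, without overlap and with 0 called. The lists of CD8 T, natural killer, dendritic and endothelial markers were each at or below 42.5 TPM in deficient and 28.4 TPM in sufficient libraries, with 0 called. Havcr2 itself had 4.84 to 18.3 TPM in deficient and 21.5 to 51.1 TPM in sufficient libraries, a log2 difference of -1.83 (limma adjusted p = 0.211).

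Most of these genes share short promoter elements. In cell cycle promoters the CHR element, TTTGAA, is bound by the DREAM and B-Myb-MuvB complexes, and the CCAAT box by the factor NF-Y. RefSeq promoter windows (build GRCm38.p6, 250 bases before to 50 after the start) were matched for 35 of the 40 genes, in 37 windows. Ccna2, Cdc25c, Aurkb, Tpx2 and Kif20a had no entry. TTTGAA on either strand was in 28 of the 37 windows (75.7%), against 17.9% of all 32851 windows. Within 50 bases of the start it was in 24 (64.9%), against 4.94% of all. CCAAT on either strand was in 28 windows (75.7%), against 37.4% of all, and both were in 24 (64.9%), against 6.95%. No match of one motif overlapped a match of the other. The 26 genes with TTTGAA had a median log2 difference of 0.45 in the undated set and -0.42 in the dated pair, and the 9 without it 0.57 and -0.44. A match describes letters and shows no binding.

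The stretches below, 150 bases each from position -100 to 50 around the start (position 1), show where the elements stand. They belong to the 6 genes of smallest p, among the 18 chosen by p and by level within roles, whose window held TTTGAA on either strand. Capitals mark TTTGAA and CCAAT or their reverse complements TTCAAA and ATTGG, and each sequence is read 5′ to 3′ along the gene's strand. Kif23 (chr9:61946750-61946899, minus strand) and Racgap1 (chr15:99651607-99651756, minus strand) have the same order, ATTGG at -7 and -12 and then TTTGAA at 3 and 6. Bub3 (chr7:131560270-131560419, plus strand, the first of 2 windows), Kif15 (chr9:122950981-122951130, plus strand) and Ttk (chr9:83834589-83834738, plus strand) carry the reverse form, TTCAAA, at -43, -19 and 8. Mki67 (chr7:135716330-135716479, minus strand) has its matches farther from the start, at -98 and, outside the stretch, at -116, and its CCAAT matches all lie outside the stretch.
Bub3: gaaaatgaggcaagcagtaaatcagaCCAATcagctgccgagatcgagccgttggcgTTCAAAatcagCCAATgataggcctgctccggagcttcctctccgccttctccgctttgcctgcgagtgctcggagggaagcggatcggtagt
Kif23: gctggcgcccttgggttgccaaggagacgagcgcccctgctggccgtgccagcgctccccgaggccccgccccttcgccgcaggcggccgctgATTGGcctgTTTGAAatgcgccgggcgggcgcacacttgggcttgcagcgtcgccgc
Kif15: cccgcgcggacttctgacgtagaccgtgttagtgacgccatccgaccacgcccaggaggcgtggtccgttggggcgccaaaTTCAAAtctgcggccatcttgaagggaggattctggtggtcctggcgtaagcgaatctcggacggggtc
Racgap1: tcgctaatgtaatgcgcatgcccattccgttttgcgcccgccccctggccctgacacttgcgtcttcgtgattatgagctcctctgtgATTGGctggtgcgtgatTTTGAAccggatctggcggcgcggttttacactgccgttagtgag
Ttk: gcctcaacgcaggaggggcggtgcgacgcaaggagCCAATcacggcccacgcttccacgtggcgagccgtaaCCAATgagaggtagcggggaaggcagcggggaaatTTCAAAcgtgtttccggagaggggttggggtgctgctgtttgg
Mki67: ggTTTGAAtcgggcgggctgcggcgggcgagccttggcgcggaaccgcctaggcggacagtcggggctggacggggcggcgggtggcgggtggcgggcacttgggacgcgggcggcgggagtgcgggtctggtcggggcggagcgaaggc

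Among the genes of entry into mitosis, cyclin B1 and Cdk1 showed the pattern most plainly. Cdk1, the kinase that starts mitosis (GRCm38 chromosome 10, 69335146 to 69352938, minus strand), had 243.0, 177.5 and 23.1 TPM in deficient C1, D and dated, against 73.3, 98.5 and 35.0 TPM in sufficient A1, B1 and dated. Both undated deficient libraries were above every sufficient library, and the deficient dated library was below every one. In log2(TPM + 1), Cdk1 averaged 6.67 ± 1.81 in deficient and 6.01 ± 0.75 in sufficient libraries (SD, n = 3 each), a difference of 0.66 ± 0.81 (SE, limma adjusted p = 0.795). Ccnb1, which encodes its partner cyclin B1 (chromosome 13, 100778650 to 100786570, minus strand), had 85.1, 104.3 and 14.4 TPM in deficient C1, D and dated, against 37.7, 40.7 and 20.4 TPM in the sufficient libraries in the same A1, B1, dated order. It averaged 5.70 ± 1.53 in deficient and 5.02 ± 0.53 in sufficient libraries, a log2 difference of 0.67 ± 0.68 (limma adjusted p = 0.739). The order of the libraries was nearly that of Cdk1. An annotated pseudogene copy exists for Ccnb1, Ccnb2, Kif4 and Kif22, and reads may be divided with it. Ccna2, the cyclin A of S phase and G2, had 36.3, 32.3 and 4.45 TPM in deficient and 14.8, 17.3 and 8.64 TPM in sufficient libraries (log2 difference 0.43). Ccnb2 (cyclin B2) and Cdc25c, a phosphatase that activates Cdk1, had log2 differences of -0.03 and 0.26. Of these 5 genes, 0 were called and all 5 were lowest in the deficient dated library.

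Among the mitotic kinases and their partner survivin, undated deficient libraries lay above undated sufficient ones without overlap in 4 of 5 genes, the exception being Aurkb. Of all tested genes, 31.3% were in that state. Plk1, the Polo-like kinase of spindle assembly, had 30.8, 20.2 and 3.59 TPM in deficient C1, D and dated, against 13.5, 12.8 and 3.37 TPM in sufficient A1, B1 and dated. Here both dated libraries were low and close to each other. The log2 difference of Plk1 was 0.61 ± 0.75 (SE, limma adjusted p = 0.796). Birc5 (survivin, of the chromosomal passenger complex) had 174.7, 127.3 and 52.5 TPM in deficient and 102.9, 97.1 and 81.5 TPM in sufficient libraries, a log2 difference of 0.17 ± 0.39 (limma adjusted p = 0.896). Its SD was 0.89 in deficient and 0.17 in sufficient libraries. Aurka, the Aurora kinase of spindle poles, Aurkb, the kinase of the passenger complex, and Plk4, the kinase of centriole duplication, had log2 differences of 0.46, 0.18 and 0.33, and none of the 5 was called.

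The kinetochore and checkpoint genes held the steadiest members. Bub3, a checkpoint protein (chromosome 7, 131560222 to 131571895, plus strand), had 140.2, 131.7 and 102.5 TPM in deficient C1, D and dated, against 104.2, 95.3 and 100.3 TPM in sufficient A1, B1 and dated. It had the smallest range over the 6 libraries of the 40 genes (0.55 in log2) and the smallest p, with a log2 difference of 0.31 ± 0.16 (SE, limma adjusted p = 0.511). The groups overlapped only through the deficient dated library. Cenpa, the histone H3 variant of centromeres, had the highest mean log2 level of the 40, with 206.6, 229.0 and 158.9 TPM in deficient, against 174.9, 182.9 and 248.4 TPM in sufficient libraries. It was lowest in deficient dated and highest in sufficient dated, with a log2 difference of -0.03 ± 0.20 (limma adjusted p = 0.975). Ttk, the checkpoint kinase Mps1, had the lowest mean log2 level of the 40, with 4.49, 1.63 and 1.43 TPM in deficient and 1.74, 1.52 and 0.82 TPM in sufficient libraries, a log2 difference of 0.49 ± 0.39 (limma adjusted p = 0.652). The remaining 8 lay between -0.48 (Bub1b, a checkpoint kinase-like protein) and 0.46 (Bub1, a checkpoint kinase). They include the kinetochore motor Cenpe, the centromere proteins Cenpf and Cenpm, the microtubule-binding kinetochore subunits Ndc80 and Nuf2, and the checkpoint protein Mad2l1. Of the 11, 0 were called.

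Spindle genes were split. Tpx2, which activates Aurora A on the spindle, had 20.4, 16.5 and 7.0 TPM in deficient C1, D and dated, against 10.4, 12.5 and 3.39 TPM in sufficient A1, B1 and dated. It was higher in the deficient library in the undated set and also in the dated pair, with a log2 difference of 0.72 ± 0.51 (SE, limma adjusted p = 0.611). Kif22, a chromosome-arm motor, had 35.8, 33.9 and 11.4 TPM in deficient and 22.5, 18.1 and 10.9 TPM in sufficient libraries, a log2 difference of 0.52 ± 0.45 (limma adjusted p = 0.687). Kif15, a spindle motor, ran the other way with 8.51, 9.0 and 4.11 TPM in deficient and 11.3, 8.03 and 10.9 TPM in sufficient libraries, a difference of -0.48 ± 0.33 (limma adjusted p = 0.590). Kif11 (the bipolar spindle motor Eg5), Kif2c (a microtubule depolymerase), Kif4 (a chromokinesin), Nusap1 and Hmmr (microtubule-binding proteins) lay between -0.22 and 0.25. None of the 8 was called.

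Partners of the anaphase promoting complex spread as widely as Cdk1. Cdc20, its activator, had 59.95, 37.5 and 5.12 TPM in deficient C1, D and dated, against 16.01, 26.3 and 9.56 TPM in sufficient A1, B1 and dated. Ube2c, its ubiquitin-conjugating enzyme, had 180.6, 175.0 and 21.8 TPM in deficient and 80.4, 138.2 and 43.9 TPM in sufficient libraries. In both genes the deficient group held the 2 highest values and the lowest. The log2 differences were 0.52 ± 0.79 for Cdc20 and 0.17 ± 0.79 for Ube2c (SE, limma adjusted p = 0.841 and 0.949).

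Cytokinesis genes had positive differences in 5 of 5, with the highest median of the 7 roles (0.58), though that of Kif20a was -0.0099 under quantile normalization, -0.042 under median centring and -0.0097 with a pseudocount of 0.1. Kif23 (chromosome 9, 61915905 to 61946774, minus strand) and Racgap1 encode the 2 subunits of centralspindlin, which organises the midzone between separating chromosomes. Kif23 had 31.5, 34.1 and 9.20 TPM in deficient C1, D and dated, against 14.7, 16.2 and 8.60 TPM in sufficient A1, B1 and dated, a log2 difference of 0.72 ± 0.49 (SE, limma adjusted p = 0.587). Racgap1 had 58.1, 45.9 and 19.9 TPM in deficient and 32.4, 26.5 and 18.1 TPM in sufficient libraries, a difference of 0.58 ± 0.40 (limma adjusted p = 0.596). In both, undated deficient libraries were highest and the dated libraries lowest, with little between the dated ones. Prc1, which bundles midzone microtubules, had 84.3, 70.4 and 21.5 TPM in deficient and 53.3, 38.3 and 22.7 TPM in sufficient libraries (log2 difference 0.48 ± 0.51, limma adjusted p = 0.757). Anln, the scaffold anillin of the contractile ring, had 12.8, 6.13 and 0.38 TPM in deficient and 3.03, 2.75 and 1.09 TPM in sufficient libraries. Kif20a, a midzone motor, had a difference of 0.09.

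In none of the 4 genes of chromosome structure were the undated deficient libraries above the undated sufficient ones without overlap. That state was found at 31.3% of all tested genes, and 4 genes are too few to set this role apart. Mki67, which encodes Ki-67, the common mark of dividing cells, had 6.59, 5.42 and 3.76 TPM in deficient C1, D and dated, against 9.78, 7.73 and 4.74 TPM in sufficient A1, B1 and dated. It was lower in the deficient library within each set, with a log2 difference of -0.41 ± 0.33 (SE, limma adjusted p = 0.665). Ncapd2, a condensin subunit, had 8.96, 16.8 and 6.24 TPM in deficient and 23.5, 13.3 and 9.47 TPM in sufficient libraries, a difference of -0.51 ± 0.42 (limma adjusted p = 0.674). Top2a, the topoisomerase that untangles chromosomes, had 79.1, 45.2 and 17.0 TPM in deficient and 57.1, 41.3 and 27.1 TPM in sufficient libraries, a difference of -0.02 ± 0.52 (limma adjusted p = 0.994). Smc2, the core condensin ATPase, had a difference of -0.22. All 4 differences of this role were negative and 0 were called.

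**Figure D2:**
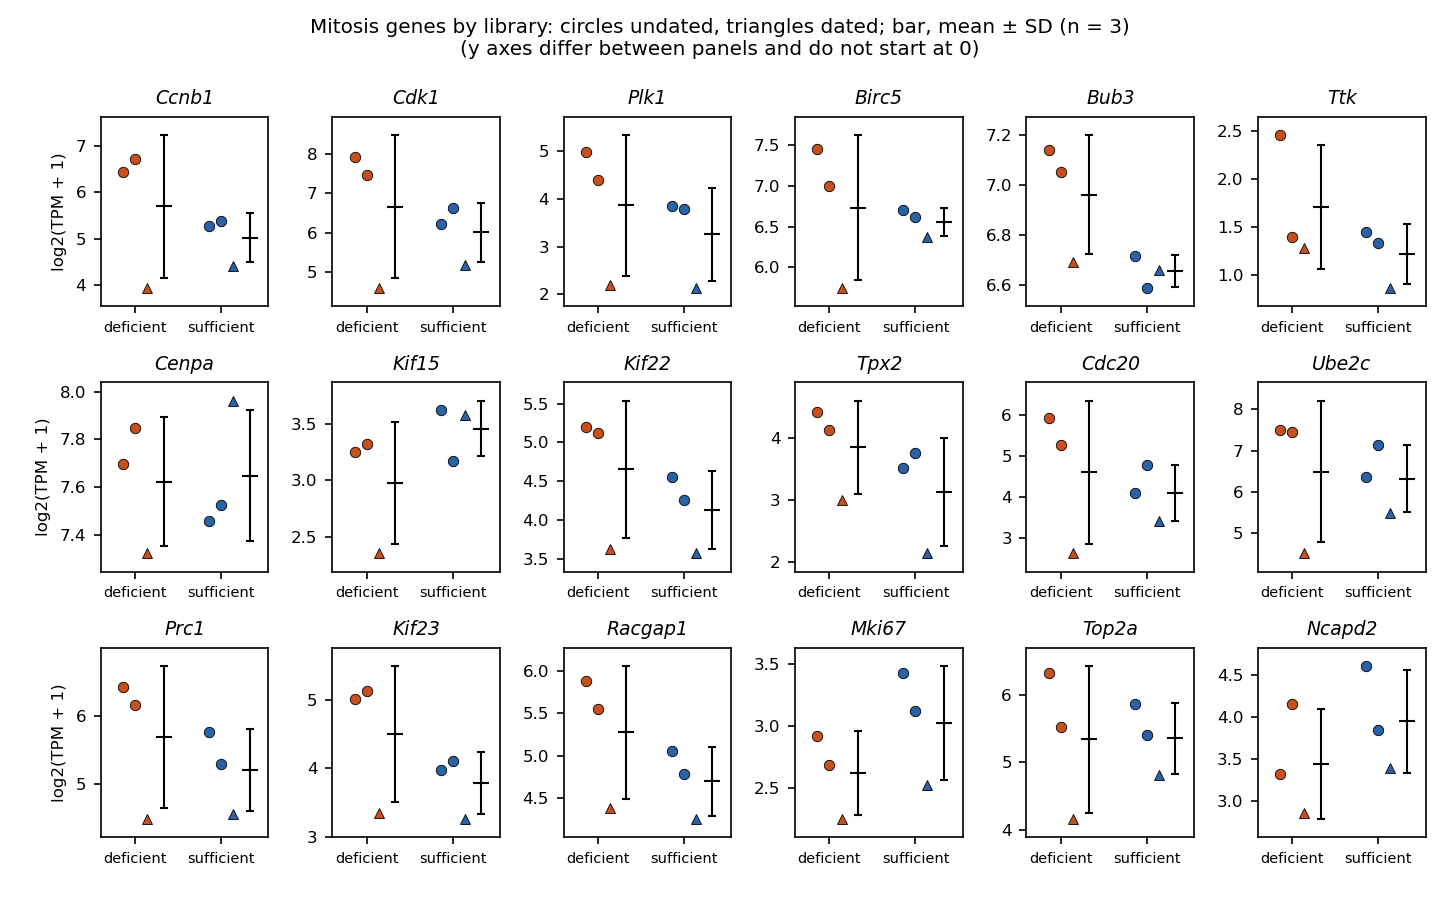
The 18 mitosis genes chosen by p and by level within roles, in log2(TPM + 1), 1 point per library (deficient left, sufficient right; circles undated, triangles dated), with a black bar for the group mean ± SD (n = 3). In Cdk1, Ccnb1, Cdc20 and Ube2c the deficient group holds both the highest values and the lowest, while in Mki67 and Ncapd2 sufficient A1 is highest.

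With the dated pair shown apart, the difference had opposite signs in the 2 sets of libraries for most of these genes. In the undated set (2 deficient, 2 sufficient) the median log2 difference was 0.55 and 32 of 40 were positive, where the median over all tested genes was 0.09. In the dated pair (1 and 1) the median was -0.43 and 31 of 40 were negative, where 42.0% of all tested genes were negative. In 24 of 40 genes the difference was positive in the undated set and negative in the dated pair, against 19.6% of tested genes. Undated deficient libraries lay above undated sufficient ones without overlap at 23 of 40 genes (background 31.3%), and below them at 2, Mki67 and Smc2 (background 20.0%). Of those 23, 17 were lower in the deficient library of the dated pair, which is 42.5% of the 40, where 8.96% of tested genes had both. A drop of 0.5 log2 or more in that pair was found for 17 of 40, against 11.7% of tested genes. These medians kept their signs under quantile normalization (0.46 and -0.51), median centring (0.40 and -0.54) and a pseudocount of 0.1 (0.64 and -0.51). Median centring moved the undated median of all tested genes to -0.06, and 29 of 40 mitosis genes were then positive.

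A limma fit to the 4 undated libraries alone called 2 of 40 genes, both higher in deficient cells, where 0.905% of tested genes were called higher. They were Ccnb1, at a log2 difference of 1.25 ± 0.18 (SE, adjusted p = 0.0265), and Cdk1, at 1.28 ± 0.22 (adjusted p = 0.0406). At an unadjusted p under 0.05, 18 of 40 were higher, against 12.3% of tested genes. Anln had a larger difference, 1.35, without passing (adjusted p = 0.137). Differences over 1 that did not pass were also those of Cdc20 at 1.17 (0.120), Aurka at 1.06 (0.101), Ccna2 at 1.05 (0.0676) and Kif23 at 1.04 (0.0655). The excess was present in each undated pairing. The median of the 40 was 0.64 for deficient C1 and 0.36 for deficient D over sufficient A1, and 0.88 and 0.43 over sufficient B1, with 27 to 35 of 40 positive. Over all tested genes those 4 pairings had medians of 0.03 to 0.16, with 52.5% to 61% positive. The deficient dated library was higher than sufficient A1 at 0 of 40 genes (median -1.34), where 38.6% of all tested genes were higher. It was higher than sufficient B1 at 1 of 40 (median -1.03), where 45.9% of all tested genes were higher. All pairings that share a library share its deviations.

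Within the dated pair, the lowest values were those of Kif4 at -1.58, Bub1b at -1.56, Kif20a at -1.23 and Kif15 at -1.22. Kif4 had 0.25 TPM in deficient dated, against 2.74 TPM in sufficient dated. Bub1b had 0.53 TPM in deficient dated, against 3.51 TPM in sufficient dated. The 9 genes with positive values in this pair were Tpx2 at 0.87, Cenpf at 0.62, Ttk at 0.42, Racgap1 at 0.13, Kif23 at 0.09, Plk1 at 0.07, Kif22 at 0.06, Kif11 at 0.04 and Bub3 at 0.03. The pair has 1 library a group and no replicate check.

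Whether the difference in the dated pair departs from that in the undated set was tested as an interaction in limma, which leaves 2 residual degrees of freedom and was chosen after seeing the data. The same test found none of the changes put into simulated data. The simulated noise included the spread between dated and undated libraries, which this fit takes out. The simulation may therefore understate what the test can find, and does not settle how much its count of calls says here. No mitosis gene passed (0 of 40, smallest adjusted p = 0.302 for Ccnb1 at -1.72 log2), where 0.0165% of tested genes did. At an unadjusted p under 0.05, 16 of 40 had a negative interaction, against 3.11% of tested genes. They move together across the same 6 libraries and are not 16 separate observations. When the date mark was a term of the fit, 0 of 40 passed (smallest adjusted p = 0.125, for Tpx2), against 1.97% of tested genes.

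**Figure D3:**
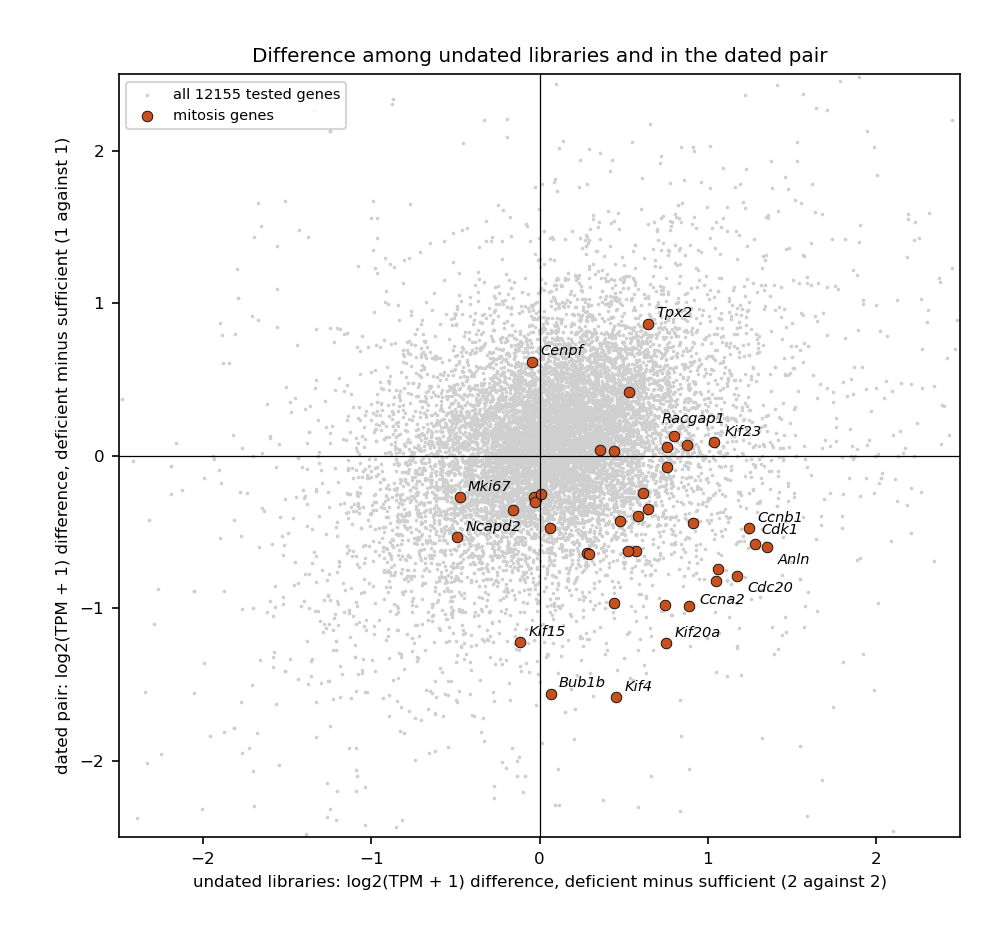
Log2(TPM + 1) difference, deficient minus sufficient, in the undated set (x axis, 2 against 2) and for the dated pair (y axis, 1 against 1) for the 12155 tested genes in grey and the 40 mitosis genes in orange, with 135 genes beyond the axes. Most mitosis genes lie at the lower right, positive on x and negative on y, as 24 of 40 do, with Tpx2 and Racgap1 above the line.

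By role, the 2 anaphase partners had medians of 0.96 in the undated set and -0.88 in the dated pair, and the 5 entry genes 1.05 and -0.58. Kinases had 0.62 and -0.43, kinetochore genes 0.44 and -0.35, and spindle genes 0.21 and -0.28. Cytokinesis genes had 0.80 and -0.08, and chromosome structure genes -0.31 and -0.44. These are counts of few genes and no test was made between roles.

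Other cell cycle lists were read the same way, and none of their genes was called. A list of 47 further mitosis genes, 45 of them tested, had medians of 0.48 in the undated set and -0.25 in the dated pair. Its genes of smallest p were Cenpl, a centromere protein, at 0.94 ± 0.25 (SE, limma adjusted p = 0.206) and Zwint, a kinetochore protein, at 0.49 (0.461). When the date mark was added to the fit, Cenpl passed (adjusted p = 0.0362). DNA replication genes (36 of 37 tested) had 0.45 and -0.18. Their smallest p belonged to Lig1, the replicative DNA ligase, at -0.79 ± 0.24 (limma adjusted p = 0.251, and 0.0402 with the date block), and to Pole2, a subunit of DNA polymerase epsilon, at 0.58 (0.478).

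The remaining lists did not have that pattern of signs. The list of G1 cyclins and kinases (10 tested) had medians of 0.04 in the undated set and 0.24 in the dated pair. Its smallest p belonged to Cdc25b, at 0.92 ± 0.26 (SE, limma adjusted p = 0.224). Cdc25b is neither a cyclin nor a kinase but a phosphatase that activates cyclin-dependent kinases. Cdk4, a kinase of G1, was at 0.77 (limma adjusted p = 0.393). Cell cycle inhibitors (10 of 11 tested) had 0.25 and 0.67, with the inhibitors of Cdk4 and Cdk6 Cdkn2d at 0.67 ± 0.19 (limma adjusted p = 0.227) and Cdkn2b at 1.65 ± 0.48 (0.244). Regulators of mitotic transcription (16 of 18 tested) had -0.03 and 0.10, where E2f3, an E2F activator, was at -0.70 (limma adjusted p = 0.452) and Lin9, a MuvB subunit, at 0.57 (0.453). Subunits and inhibitors of the anaphase promoting complex (16 tested) had 0.28 and 0.03, where the subunits Anapc5 and Anapc11 were at 0.58 (limma adjusted p = 0.381) and 0.33 (0.545). Differences between lists were not tested.

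**Figure D4:**
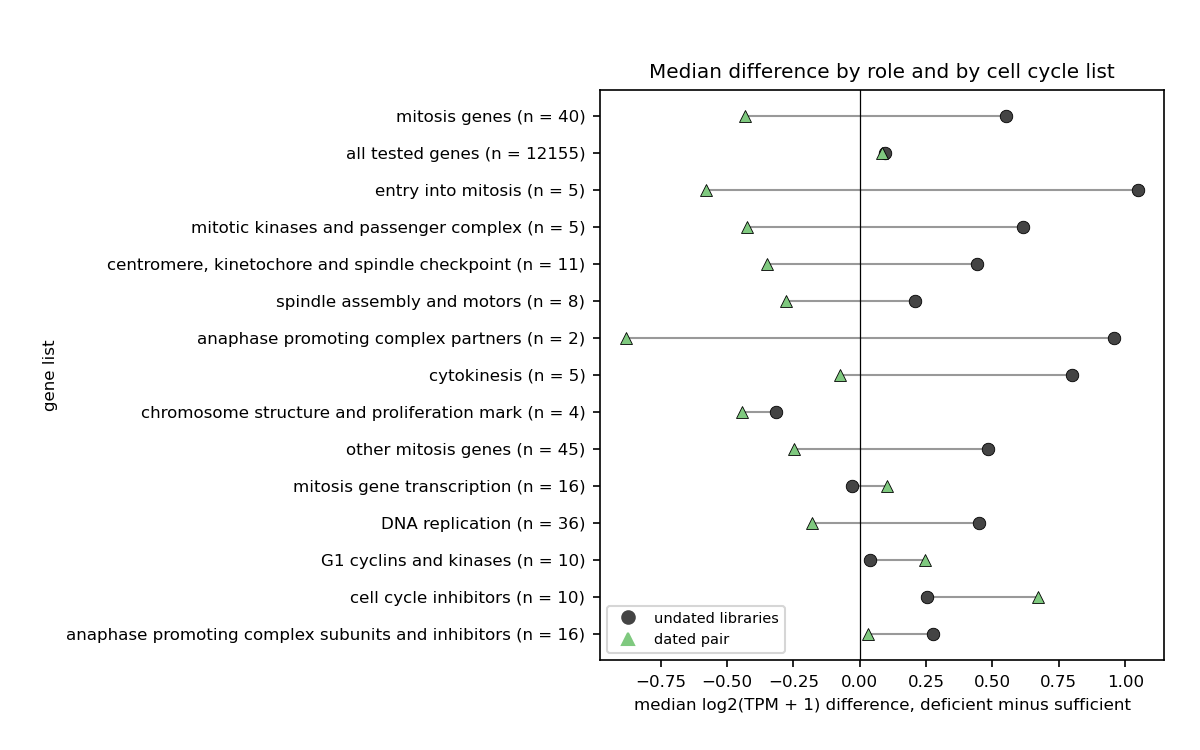
Median log2(TPM + 1) difference, deficient minus sufficient, for the 40 mitosis genes, all tested genes, the 7 roles and 6 other cell cycle lists, for undated libraries (circles) and dated ones (triangles), with n the number of tested genes. The 40 mitosis genes (0.55 and -0.43), the other mitosis genes and DNA replication have circles right of 0 and triangles left of it, chromosome structure has both left of 0, and all tested genes have 0.09 and 0.08.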

How the data were processed

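The 6 libraries of tumour Treg cells were read as 75 bp pairs after Nextera XT preparation, per the labels' protocols. The submitters' processing notes name STAR, RSEM and limma, with no version, and GRCm38 and mm10 as builds. Values were deposited by the authors on a log2 scale: raised back and less 1, each library summed to between 999999 and 1000001, so they were read as log2(TPM + 1). TPM keeps no read counts, so no counting interval was computed. All 55450 identifiers matched GENCODE mouse release 21, used for coordinates.

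Genes with a log2 value of at least 1 in at least 3 of 6 libraries were tested (12155). Groups were compared with limma 3.58.1 in R 4.3.3 (lmFit, eBayes with a mean-variance trend), two-sided, Benjamini-Hochberg adjusted p under 0.05, deficient minus sufficient. Differences on this scale understate changes of low genes. In simulated data with known changes, the main test found most of the largest ones and few of the smallest, and the interaction test none. The simulated noise was the spread within groups, dated and undated libraries together, which is wider than the interaction fit meets where dated libraries differ. Exons of 10 mitosis genes overlap a gene on the other strand, and strand use is not stated.

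Values in every library are given by rule for the 8 genes of smallest p and, in each role, the gene of smallest p and that of highest mean. From each other list the 2 genes of smallest p are named, and any other gene, such as Ccna2 and Anln, was chosen after its values were seen. The genes and lists were chosen with earlier results of these data known. Promoters are RefSeq's. Python 3.11.15, pandas 2.3.3 and matplotlib 3.10.9 were used.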

Additional observations from a re-analysis of the deposited data

How the results depend on the processing

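The count of 0 mitosis genes called in limma held under each alternative except leaving out both dated libraries, which called 2 (Ccnb1 at 1.25 and Cdk1 at 1.28 log2). Leaving out any 1 library called 0 of 40. At an unadjusted p under 0.05 there were 22 of 40 without the deficient dated library, against 19.4% of all tested genes in that fit. There were 0 of 40 without any other library, against 7.77% to 10.8% of all tested genes. The count over all genes was 25, against 1 with no filter on low values, 38 with quantile normalization, 4 with no mean-variance trend, 240 with the date block, 215 without both dated libraries and 0 without deficient C1 and sufficient B1 (chosen after seeing the data). Leaving out 1 library in turn gave 0 to 121 genes over all: 121 without deficient dated, 24 without sufficient dated, 11 without deficient C1, 2 without sufficient A1 and 0 without deficient D or sufficient B1. In the 3 settings that called 0, 6.15% to 8.05% of genes had an unadjusted p under 0.05. The median log2 difference of the 40 was -0.11 to 0.74 with 1 library left out, and 0.55 without both dated libraries. Among the 18 genes chosen by p and by level, signs turned without both dated libraries for Cenpa (0.28) and Top2a (0.29), and without deficient C1 and sufficient B1 for Birc5 (-0.16). With 1 library left out, ranges that crossed 0 among these 18 were -0.19 to 0.67 for Birc5, -0.14 to 1.51 for Cdc20, -0.33 to 1.16 for Ube2c, -0.14 to 0.13 for Cenpa and -0.51 to 0.57 for Top2a, and beyond them -0.06 to 1.32 for Ccna2 and -0.01 to 1.65 for Anln. Over all 40 genes, leaving out deficient C1 turned 13 signs and leaving out the deficient dated library 11. Quantile normalization, median centring and the smaller pseudocount each turned 1. The cause was not tested. No paired analysis was possible because the columns carry no replicate numbers; the date mark, fitted as a block, called 0 of 40. Unknown depth limits the lowest genes, such as Kif4, Ttk and Anln.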
